A study of Homo sapiens with 12 samples.

Results

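Binding of the RNA-binding protein QKI to 8 cardiac genes was described: TPM1, ACTN2, PDLIM5, LDB3, TTN, CAMK2D, ATP2A2 and RYR2. These encode structural proteins of the sarcomere or proteins that move and sense calcium in heart muscle. A cluster, the stretch of RNA called by the authors from stacked reads, was taken as a member when the annotation of the endogenous QKI libraries named 1 of the 8 genes for it. This gave 616 of 616191 clusters, 385 in endogenous library 1 and 231 in library 2, and 7 of the 8 genes had at least 1. Values from the tagged proteins were taken from clusters that overlapped these on the same strand, which gave 17 and 20 clusters in the mutant libraries and 78 and 89 in the wild type libraries.

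The data are enhanced crosslinking and immunoprecipitation (eCLIP) libraries, in which protein and RNA are joined by ultraviolet light, the protein is isolated with an antibody, and its bound RNA is read alongside input RNA of matching size. Crosslinking used 254 nm light at 400 mJ/cm2 in all groups. The labels name HEK293xT cells, a human embryonic kidney line, although the series' design note speaks of embryonic stem cells turning into heart muscle cells. Of 9 cardiomyocyte marker genes, 1 had a cluster in the endogenous libraries, NKX2-5 with 1 cluster, and of 6 pluripotency markers 0 did. A cluster needs both RNA and crosslinking, so these counts are not expression levels. The mutant group (2 libraries) expressed myc-tagged QKI-5 with the substitutions K120A and R124A from a transiently transfected plasmid and was pulled down with anti-MYC antibody. The wild type group (2 libraries) expressed unaltered myc-QKI-5 in the same way, from 10 µg of plasmid over 72 hours. In the endogenous group (2 libraries) untransfected cells were used with anti-QKI antibody, so antibody and transfection both differ between it and the tagged groups. No removal of the cells' own QKI is named in the labels, and whether the 2 libraries of each group were separate cultures is not stated. The p-values below therefore set a difference only against the variation among these libraries, and that variation may be technical.

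QKI (Quaking) belongs to the STAR family of KH-domain proteins and binds ACUAA-containing elements, mostly in introns, where it changes which exons are joined. QKI-5 is its nuclear isoform. In heart muscle, alternative splicing sets the isoforms of many sarcomere and calcium handling proteins, and QKI is known as a regulator of such splicing. Most sarcomere proteins are specific to muscle, while some of the 8 genes, TPM1, PDLIM5, CAMK2D and ATP2A2 among them, are also used by other cells.

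A cluster was called enriched when the authors' log2 fold of immunoprecipitation over input was at least 3 and its −log10 p at least 3. In the mutant libraries 0 of 17 and 0 of 20 member clusters were enriched, which by the exact binomial interval allows up to 19.5% and 16.8%. Over all clusters of these libraries the enriched share was 0.0405% and 0.304%, and 0.136% and 0.452% among those on a named endogenous cluster, so a count of 0 among so few is no result about these genes. Wild type libraries had 3 of 78 (3.85%, 95% exact interval 0.800 to 10.8) and 5 of 89 (5.62%, 1.85 to 12.6) member clusters enriched. The shares over all wild type clusters were 2.07% and 1.89%. Among wild type clusters lying, like the members, on a named endogenous cluster they were 5% and 4.97%. In the endogenous libraries 26 of 385 (6.75%, 4.46 to 9.74) and 19 of 231 (8.23%, 5.02 to 12.5) were enriched. The shares over all endogenous clusters were 4.22% and 5.39%. Of member clusters with a log2 fold above 0, 26 of 273 and 19 of 218 were enriched. The shares over all endogenous clusters above 0 were 7.08% and 6.3%. These intervals cover counting error only and treat neighbouring clusters as independent.

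TPM1 supplied a large share of the enriched clusters in the endogenous libraries. It held 3.38% and 4.76% of the member clusters but 38.5% and 31.6% of the enriched ones. With TPM1 left out, a setting chosen after its values were seen, the shares of the other genes were 4.30% and 5.91%, beside the 4.22% and 5.39% of all clusters. Several enriched clusters abutted each other. When abutting enriched clusters were joined, the 8 genes had 17 enriched stretches in each endogenous library, of which TPM1 had 4 in each.

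**Figure D1:**
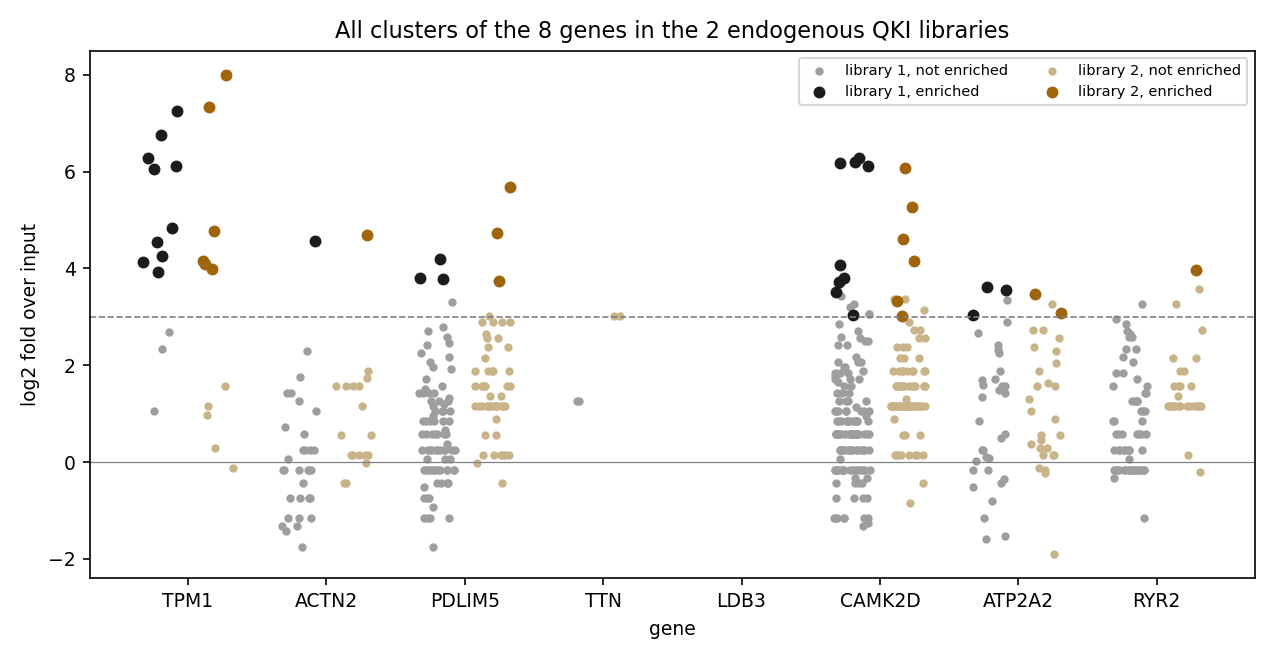
Each point is a cluster of 1 of the 8 genes in an endogenous QKI library, with the gene on the horizontal axis and the log2 fold over input on the vertical axis. Dark points are enriched and the dashed line marks a log2 fold of 3. TPM1 has 10 and 6 enriched clusters among only 13 and 11, CAMK2D has 9 and 6 among 150 and 89, and LDB3 has no point.

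The authors' list of peaks reproducible between the 2 endogenous libraries held 16 peaks in these genes, 6 in TPM1, 5 in CAMK2D, 2 each in PDLIM5 and ATP2A2 and 1 in ACTN2. Joining peaks that abut left 13 loci, between 76 and 192 bases wide. Of all gene names with an endogenous cluster, 20.5% had such a peak, against 5 of the 7 genes here, a list that had been drawn up with results of these data known. Introns held 11 of the 13 loci (84.6%), 10 of them away from splice sites in the authors' annotation (76.9%), beside 84.1% and 70.7% of all 10206 endogenous loci. The lists of reproducible peaks had 0 mutant peaks and 4 wild type peaks in the 8 genes, 3 in CAMK2D and 1 in TPM1. All 4 lay on an endogenous peak, as did 68.2% of all 3671 wild type peaks, and wild type peaks were tied to a gene only through its endogenous clusters. Over all gene names 0.091% had a mutant peak and 10.8% a wild type peak. Because the loci come from the endogenous libraries, endogenous values at them are only a description, while the tagged libraries had no part in the choice. With a missing cluster as 0, both wild type values lay below both endogenous values at 9 of the 13 loci. The share over all loci is not given here, so this ordering is no result about these genes. In the mutant minus wild type differences given for each locus, a library with no listed cluster counts as 0, and no call at any locus held when either mutant library was left out. At 10 of the 13 loci both mutant values are such zeros, 7 of them called lower, so the mutant's own spread was not measured there. The SE and p at those loci rest on the wild type libraries and on the spread limma shares between loci.

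TPM1 encodes α-tropomyosin, the coiled-coil protein that lies along the actin thin filament and governs access of myosin, and its transcript is spliced differently in muscle and non-muscle cells. Its strongest locus lay in an intron (hg19 chr15:63357369-63357543, plus strand). The log2 fold there was 0.61 in mutant library 1, with no cluster listed in mutant library 2, against 4.63 and 5.79 in the wild type libraries. Both endogenous libraries were higher still, at 6.76 and 7.999. The 3 groups did not overlap, but both wild type values lay above both mutant values at 80.1% of all 9483 loci tested. The leading TPM1 locus had the highest endogenous mean of the 13 loci (7.38 ± 0.88, SD, n = 2). The mutant minus wild type difference was −4.90 (SE 0.54, limma adjusted p = 0.00676).

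A further TPM1 locus lay 833 bases upstream of it, in what the authors annotated as a 3′ UTR of the gene (chr15:63356350-63356535). Neither mutant library listed a cluster there, while wild type stood at 1.11 and 2.61 and endogenous QKI at 6.05 and 4.15. The wild type libraries were thus both below both endogenous libraries, and neither passed the enrichment rule. The difference between mutant and wild type, −1.86 (SE 0.61), missed the threshold (limma adjusted p = 0.0673). The third TPM1 locus lay 4435 bases downstream of the strongest (chr15:63361979-63362137). It was annotated as a 3′ splice site in endogenous library 1 and as coding sequence in library 2. No mutant library listed it. Wild type values were 2.32 and 1.02, and endogenous values 3.92 and 4.77. Here too the wild type values lay below the endogenous ones, and mutant minus wild type was −1.67 (SE 0.54, limma adjusted p = 0.0644).

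ACTN2 encodes α-actinin-2, which crosslinks actin filaments at the Z disc. Its 1 reproducible locus was in an intron (chr1:236916596-236916736, plus strand). Neither mutant library listed a cluster. The log2 fold was 2.50 and 3.35 with the wild type protein and 4.56 and 4.69 with endogenous QKI. The endogenous mean was 4.63 ± 0.0941 (SD, n = 2), above both wild type values. The wild type clusters stayed under the −log10 p of 3, at 2.07 and 2.39, so neither counted as enriched. ACTN2 thus had a mutant minus wild type difference of −2.92 (SE 0.39, limma adjusted p = 0.00916). The other ACTN2 clusters were weak: among 32 and 18 endogenous clusters, 1 in each library was enriched, and the median log2 fold was −0.16 and 0.56.

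PDLIM5 encodes a PDZ-LIM adaptor that binds α-actinin at the Z disc. It had 2 intronic loci on the plus strand of chromosome 4, 121.3 kb apart. At the stronger (chr4:95541118-95541291) no mutant cluster was listed, wild type log2 folds were 3.11 and 2.61, and endogenous ones 4.20 and 5.67. At the other (chr4:95419683-95419798) the mutant was again without a cluster, wild type had 2.66 and 3.83, and endogenous 3.81 and 4.73. Of the PDLIM5 loci, wild type and endogenous values overlapped only at this weaker one. The mutant minus wild type difference was −2.86 at the stronger locus (SE 0.28, limma adjusted p = 0.00569). At the weaker it was −3.25 (SE 0.49, limma adjusted p = 0.0120).

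LDB3, which encodes another PDZ-LIM protein of the Z disc, had 0 clusters in both endogenous libraries, so no value from the tagged libraries can be tied to it. TTN encodes titin, the giant spring that runs from the Z disc to the M line. It had 2 abutting clusters in each endogenous library, all within 24 bases of coding sequence (chr2:179452428-179452451, minus strand). Their log2 fold was 1.26 in library 1 and 3.02 in library 2, with a −log10 p of 0.158 and 1.75, so neither library called them enriched. Neither tagged protein had a cluster there. In the tagged libraries, LDB3 and the rest of TTN were not searched. In the 2 endogenous libraries, enriched QKI binding was not detected for either gene. Whether few transcripts or few crosslinks go with this was not tested, and read depth is unknown.

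**Figure D2:**
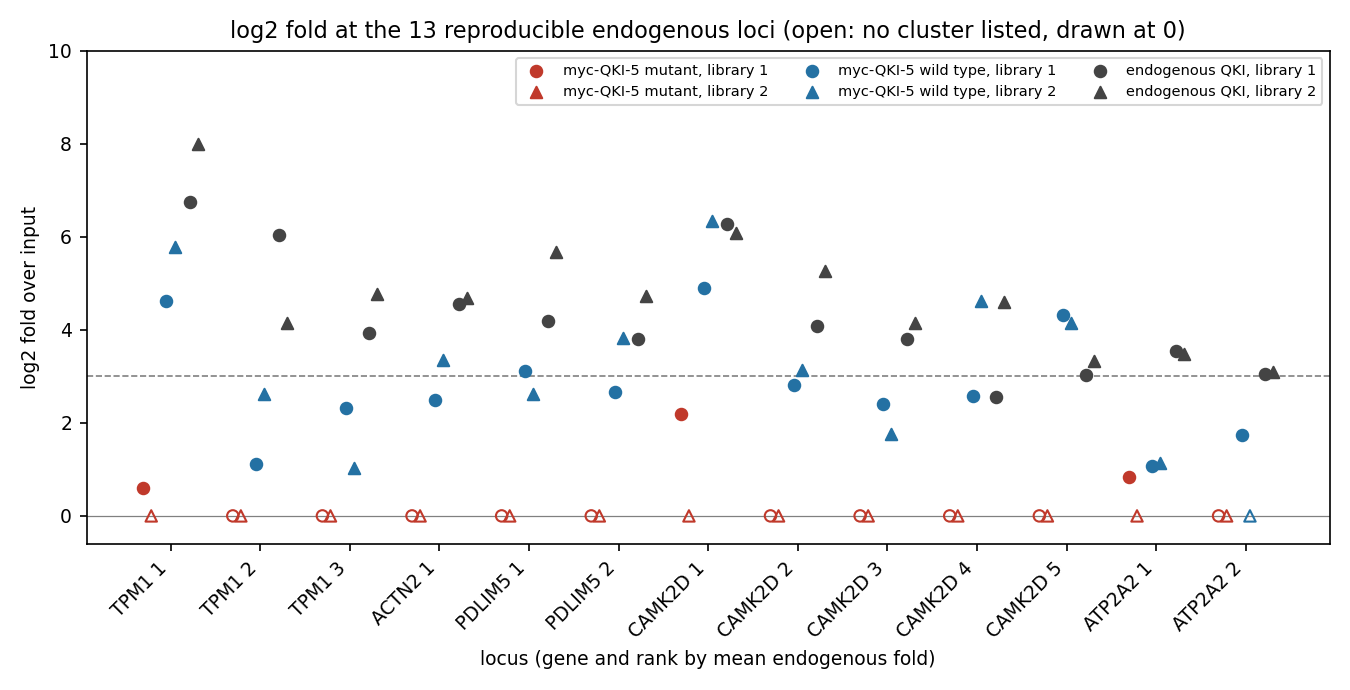
The log2 fold over input (vertical axis) is plotted for the 13 loci (horizontal axis, numbered within a gene from the highest endogenous mean) in 2 mutant, 2 wild type and 2 endogenous libraries. Open symbols at 0 are libraries with no listed cluster, and the dashed line marks a log2 fold of 3. The mutant is listed at 3 loci in library 1 and at 0 in library 2, and wild type at 13 and 12.

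CAMK2D encodes the δ form of calcium/calmodulin-dependent protein kinase II, the main form in the heart, which phosphorylates calcium channels and pumps. Its clusters were spread over 306.8 kb of the minus strand of chromosome 4, and 5 intronic loci were reproducible. The leading locus was chr4:114506724-114506915. It had a log2 fold of 2.19 in mutant library 1 and no cluster in mutant library 2, against wild type values of 4.90 and 6.35. Endogenous values were 6.28 and 6.08. The value in mutant library 1 was the highest of any mutant cluster at the 13 loci, and still below both wild type values. The mutant minus wild type difference was −4.53 (SE 1.02, limma adjusted p = 0.0285).

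No mutant library listed any of the remaining CAMK2D loci. Toward the 3′ end of the gene, the locus at chr4:114419177-114419272 had wild type values of 4.32 and 4.14 and endogenous values of 3.03 and 3.32. It was the only 1 of the 13 at which both wild type values lay above both endogenous values. This is a description only, since the loci were chosen in the endogenous libraries and the share over all loci is not given here. The difference from wild type was −4.23 in the mutant (SE 0.22, limma adjusted p = 0.00424), with both mutant values set to 0. The locus at chr4:114627850-114627995 varied between libraries of a group, at 2.58 and 4.61 for wild type and 2.56 and 4.61 for endogenous QKI, and mutant minus wild type was −3.60 (SE 0.80, limma adjusted p = 0.0277). At the last 2, both wild type values lay below both endogenous values. At chr4:114678940-114679086 wild type had 2.80 and 3.14 and endogenous 4.08 and 5.27, and at chr4:114432004-114432143 wild type had 2.41 and 1.76 and endogenous 3.81 and 4.15. Their mutant minus wild type differences were −2.97 (SE 0.25) and −2.09 (SE 0.33), with limma adjusted p-values of 0.00472 and 0.0127.

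**Figure D3:**
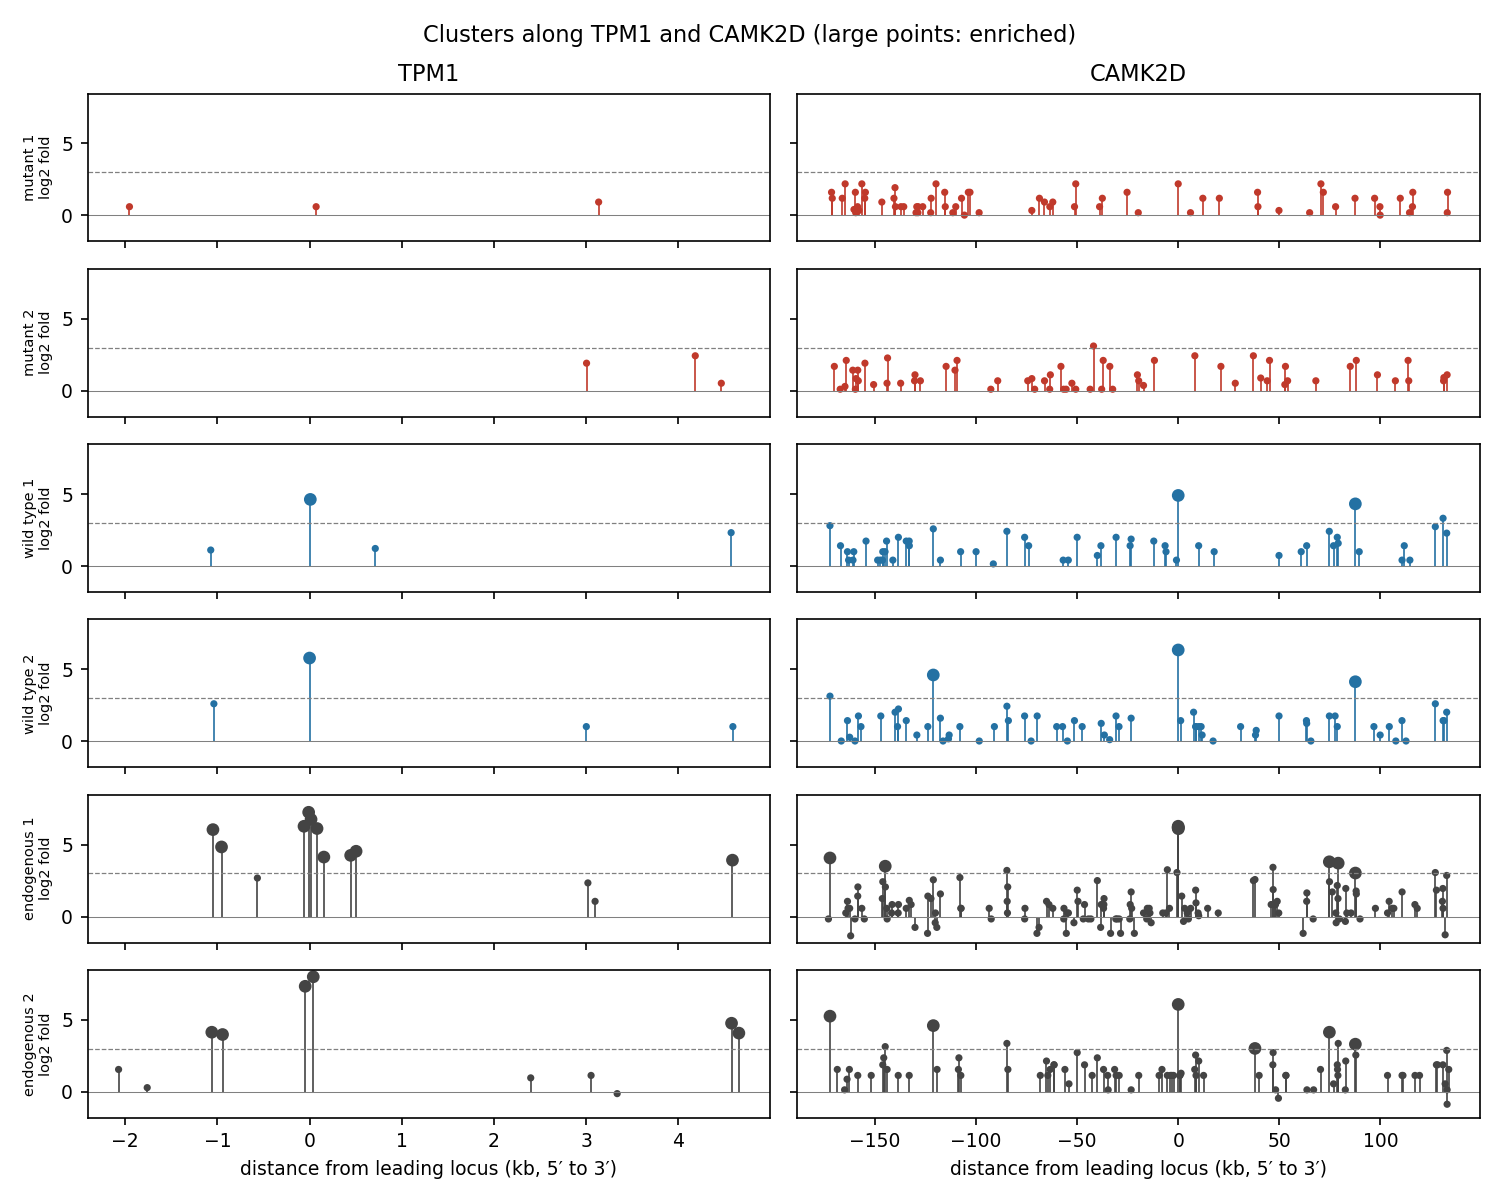
Each stem is a cluster, placed by its distance in kb from the leading locus of TPM1 (left) or CAMK2D (right), with the log2 fold over input on the vertical axis. The 6 rows are the mutant, wild type and endogenous libraries, and large points are enriched clusters. Only clusters between the first and last endogenous cluster of each gene are drawn. Wild type has 1 enriched cluster at 0 kb in both genes in each library, while neither mutant library has an enriched cluster among those drawn.

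ATP2A2 encodes SERCA2, the pump that returns calcium to the sarcoplasmic reticulum. Its 2 intronic loci lay 2059 bases apart on chromosome 12, plus strand. At chr12:110761869-110762005 the log2 fold was 0.83 in mutant library 1, with no cluster in mutant library 2, against 1.06 and 1.13 in wild type. Endogenous stood at 3.55 and 3.47. At chr12:110764065-110764140 neither mutant library had a cluster, wild type had 1.73 in library 1 and no cluster in library 2, and endogenous had 3.05 and 3.09. These loci had the lowest wild type means of the 13. Both endogenous libraries called both loci enriched, but the loci were chosen from endogenous peaks. The endogenous libraries enriched 12 and 13 of the 13. Mutant minus wild type was −0.68 (SE 0.38) and −0.87 (SE 0.69), with limma adjusted p-values of 0.204 and 0.333, so neither difference passed the threshold. The annotated 3′ UTR of ATP2A2 also held clusters in both endogenous libraries, 14 and 10, none of them enriched. Over all 3′ UTR clusters 650 of 19531 and 470 of 12248 were enriched, so this count is no result about ATP2A2.

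RYR2 encodes the ryanodine receptor, the calcium release channel of the sarcoplasmic reticulum. It held 66 and 29 endogenous clusters, over 747.3 kb, but no reproducible peak, and 0 and 1 of them were enriched. The cluster with the highest −log10 p in endogenous library 1 (chr1:237344203-237344265) had a log2 fold of 3.26 and 3.56 in the endogenous libraries. That in library 2 (chr1:237544783-237544962), the enriched one, had 2.65 and 3.96. At both, the mutant libraries and wild type library 1 had no cluster, and wild type library 2 had 2.25 and 2.02.

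Among regions tied to the 8 genes by an endogenous cluster, a further RYR2 intron region was the only 1 with a cluster in all 4 tagged libraries (chr1:237766443-237766590). Mutant values were 1.89 and 2.11, wild type values 1.80 and 1.87, and endogenous values −1.16 and −0.21, all as log2 folds. No library called it enriched. The mutant minus wild type difference was 0.16 (SE 0.48, limma adjusted p = 0.917). The SE leaves room for a difference in either direction. Over all 5356 regions with a cluster in all 4 tagged libraries, on an endogenous cluster or not, 0.597% were lower and 0.0187% higher in the mutant.

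Across the 13 loci a cluster was listed at 3 and 0 in the mutant libraries and at 13 and 12 in the wild type libraries. Over all 10206 endogenous loci the mutant libraries listed 10.4% and 10.7%, and the wild type libraries 86.2% and 83.1%. Of the 13 loci the mutant libraries enriched 0 and 0, beside 0.118% and 0.167% of all loci. Wild type libraries enriched 3 and 5, beside 26.5% and 23.9% of all loci. Both wild type values lay above both mutant values at 12 of 13 loci, the exception being the weaker ATP2A2 locus, against 80.1% of all 9483 loci tested. Here, as in the fit, a library with no cluster counted as 0, since the files of the tagged proteins list no fold of 0 or below. In limma over all 9483 loci, 9 of the 13 were lower in the mutant (69.2%) and 0 were higher. Of all loci tested, 64.9% were lower and 0.0316% higher, so the share in the cardiac genes is near that of all loci. At an unadjusted p under 0.05 the counts were 11 lower and 0 higher of the 13, beside 6548 and 6 of all 9483. The median difference was −2.92 over the 13 loci and −2.19 over all. All 9 calls ended without mutant library 1 and without mutant library 2, where the lowest adjusted p was 0.0801 and 0.0799, as did every call over all loci, although 4264 and 4250 loci were lower at an unadjusted p under 0.05. With each library centred on its median, which sets the typical loss to near 0, 1 of the 9 calls was left and the difference turned positive at 5 of the 13 loci.

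**Figure D4:**
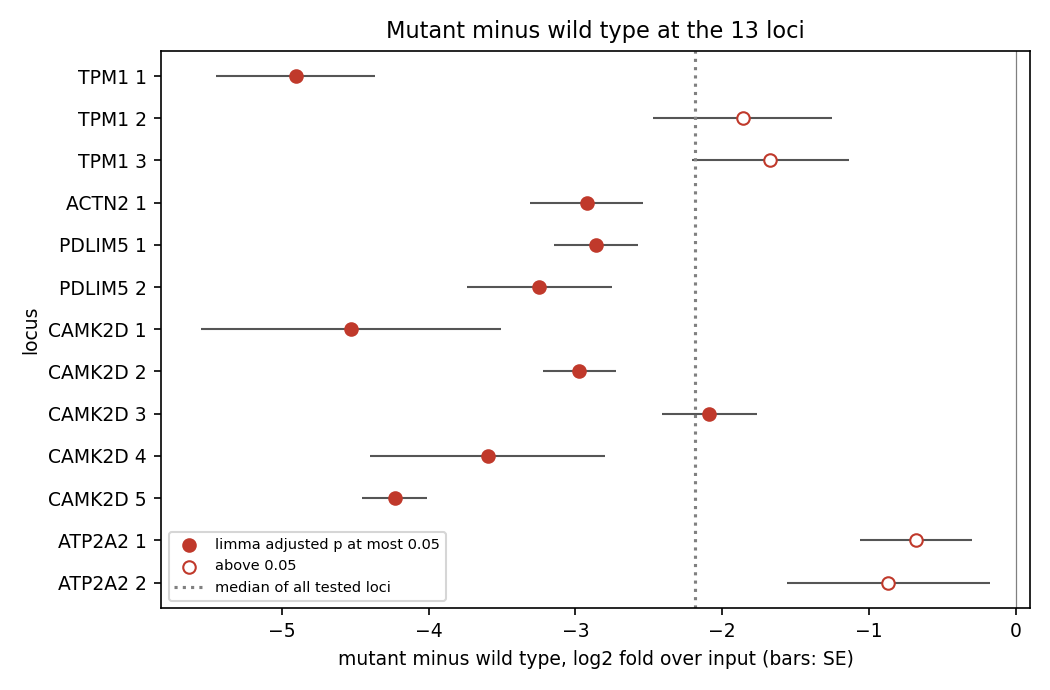
Points give the mutant minus wild type difference in log2 fold over input (horizontal axis) for the 13 loci (vertical axis), with bars for the SE from limma. Filled points have an adjusted p of at most 0.05, and the dotted line is the median of all tested loci, −2.19. The leading TPM1 and CAMK2D loci lie farthest left and both ATP2A2 loci lie nearest 0.

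The tagged wild type protein was also compared with the endogenous protein, in regions with a cluster in both libraries of each group. Of 34 such regions in the 8 genes, 3 were lower in wild type by limma (8.82%) and 0 were higher. Over all 32631 regions 5.68% were lower and 0.797% higher. At an unadjusted p under 0.05 the counts in the 8 genes were 9 lower and 1 higher of 34. Over all 32631 regions they were 6735 and 1586. With robust eBayes 3 and 0 passed adjustment in the 8 genes, beside 1739 and 238 over all. The 3 were the outer TPM1 regions and an ATP2A2 region. Wild type minus endogenous was −3.24 (SE 0.78, limma adjusted p = 0.0295) at the TPM1 3′ UTR region and −2.68 (SE 0.70, adjusted p = 0.0381) at the TPM1 region annotated as a 3′ splice site. It was −2.42 at the leading ATP2A2 locus (SE 0.64, adjusted p = 0.0402). Without wild type library 1, wild type library 2 or endogenous library 1 all 3 calls ended, and without endogenous library 2 only 1 was left. Centring each library also ended all 3.

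The leading TPM1 region had a wild type minus endogenous difference of −2.17 (SE 0.71, limma adjusted p = 0.0764) and the stronger PDLIM5 region one of −2.07 (SE 0.70, adjusted p = 0.0835). Neither passed, but both did with only regions reaching a −log10 p of 3, at adjusted p = 0.0386 and 0.0440 by limma. The leading CAMK2D region had −0.55 (SE 0.70, adjusted p = 0.657). The CAMK2D region toward the 3′ end, where wild type values lay above endogenous ones, had a difference of 1.05 (SE 0.65, adjusted p = 0.323). The RYR2 region seen in all tagged libraries, widened here by endogenous clusters to chr1:237766392-237766590, had 1.82 (SE 0.65, adjusted p = 0.0973). The median difference was −0.53 over the 34 regions and −0.48 over all regions, and after centring these were 0.07 and 0.12. The wild type files list no fold at or below 0 and the endogenous files do, so regions where wild type was not above input are absent from this comparison.

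The wider sarcomere list, of 32 genes besides the 8, had 12 genes with an endogenous cluster and 3 with a reproducible endogenous peak. Among them were ABLIM1, an actin-binding LIM protein gene, and PDLIM3, a further Z disc PDZ-LIM gene, with 1 peak each. In the authors' deposited list of reproducible peaks their log2 fold was 5.71 at ABLIM1 and 3.71 at PDLIM3. NEBL, the nebulette gene, had 110 and 53 clusters, 2 and 0 of them enriched, and no reproducible peak. Of the list's clusters 1.62% and 1.36% were enriched, beside the 4.22% and 5.39% of all clusters given above.

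The wider calcium list had 19 of 26 genes with a cluster and 10 with a reproducible endogenous peak. ASPH, which encodes aspartyl β-hydroxylase and the junctional protein junctin, had 9 peaks, CACNA2D1, a calcium channel subunit gene, had 6, STIM1, a calcium sensor of the endoplasmic reticulum, had 5, and CALM2, a calmodulin gene, had 3. The list's enriched share was 3.45% and 4.06%, under that of all clusters. Of its 23 loci tested, 15 were lower in the mutant (65.2%) and 0 higher by limma, with a median difference of −2.22, near the 64.9% and −2.19 of all loci.

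Of 16 paralogs of the 8 genes, 11 had a cluster and 3 a reproducible endogenous peak, with 3 peaks in TPM3, 1 in CAMK2G and 1 in ACTN4. The enriched share was 3.83% and 3.10%, beside 4.22% and 5.39% of all clusters. Of 4 loci tested 1 was lower and 0 were higher in the mutant by limma, a count too small to set against the 64.9% of all loci. TPM4 had 18 and 14 clusters and TPM2 had 5 and 6, with 0 enriched. ACTN1 had 36 and 8, also with 0 enriched. In TPM3, which encodes another tropomyosin, the strongest peak was annotated as a 3′ splice site, with a log2 fold of 5.56 in the authors' deposited list.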

How the data were processed

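The submitters' processing notes name STAR, cutadapt, UMI-tools and SAMtools, with hg19 as the genome build, and neither versions nor a cluster caller. Per the file headers, the deposited peaks are input-normalized. From the values, each deposited cluster carries the authors' log2 ratio to input, and the authors' −log10 p, capped at 400. The authors called clusters per library and made 1 list of reproducible peaks from the 2 libraries of each group. Read depth is unknown, and clusters per library number 226962 to 384347.

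Overlap meant at least 1 base on the same strand (bedtools 2.31.1). Where several clusters met a locus, that with the highest −log10 p was taken. Abutting reproducible peaks were joined into loci. Log2 folds were tested with limma 3.58.1 (lmFit, eBayes; R 4.3.3) over 3 whole tables, with Benjamini-Hochberg adjustment and a threshold of 0.05. With 2 libraries against 2 an exact two-sided permutation test cannot go below 0.333. On simulated data for mutant minus wild type over 9483 loci, limma called 42% of loci shifted by −3 and 72% of those shifted by −4, but 2% at −2. The simulation did not set missing clusters to 0. It shifted 50 loci at each size and left 9283 unshifted, while 9243 of the 9483 measured differences were negative. Its shares therefore do not give the power of the test at the measured loci.

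All 8 genes and every reproducible endogenous, wild type or mutant locus in them are named, then the leading genes of each wider list by reproducible peaks, of which 1 is not reported here. The genes, lists and tests were chosen with earlier results of these data known. Alternatives are in the closing section. The 6 input libraries enter only through the fold. No hg19 sequence was used here, so binding motifs were not searched.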

Additional observations from a re-analysis of the deposited data

How the results depend on the processing

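The number of enriched member clusters per endogenous library, 22.5 on average, became 14 when the log2 fold minimum was 4 and 14.5 without TPM1, and the mutant average of 0 became 0.5 with a minimum of 2. Leaving out a library gave 0 in the mutant, 3 to 5 in wild type and 19 to 26 in endogenous, and the other settings stayed within 1.5 times.

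For mutant minus wild type at the endogenous loci, the 9 lower calls in the 8 genes became 1 with centring and 0 where a cluster was required in all 4 tagged libraries, which left none of the 13 loci. Centring moved the median difference over all loci from −2.19 to 0.14, and over regions of all 4 tagged libraries from 0.26 to −0.01. Leaving out a library gave 0 to 10. Without a wild type library the spread rests on mutant values that are mostly set to 0, which makes adjusted p-values as low as 1.61e-17, and these carry no weight. Over all loci the 6157 lower and 3 higher calls became 648 and 425 with centring, and 91 and 0 among the 237 loci listed in all 4 libraries. Leaving out a library gave 0 to 7391 lower. With centring the differences turned positive at both ATP2A2 loci (1.65 and 1.46), at the CAMK2D locus starting at 114432004 (0.24) and at the outer TPM1 loci (0.47 and 0.66), none past the threshold.

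For regions in all 4 tagged libraries, the 0 lower calls in the 8 genes became 15 of 55 with regions in at least 2 libraries and missing clusters set to 0. That setting gave 11126 lower of 169635 over all regions. The 2 counts are not alike, since regions of the 8 genes all lie on an endogenous cluster and regions in general need not. The RYR2 region turned to −0.11 with centring. Over all 5356 regions, 32 lower and 1 higher became 65 and 1 with centring and 27 and 0 with robust eBayes. They became 64 and 6 of 1204 with a −log10 p filter, and 11126 and 954 of 169635 with missing clusters set to 0. Leaving out a library gave 1 to 60 lower. For wild type minus endogenous, the 3 lower calls became 5 with a −log10 p filter and 0 with centring, and leaving out a library gave 0 to 1. Over all regions 1852 lower and 260 higher became 288 and 398 with centring and 3194 and 327 with the filter, and leaving out a library gave 84 to 889 lower. The leading CAMK2D region turned to 0.045 with centring, and leaving out a library gave −1.28 to 0.17, with 0.17 without wild type library 1. The CAMK2D region starting at 114627850 ranged from −1.01 to 1.03 when a library was left out, with −1.003 without wild type library 2. Apart from effects of construction named here, the cause was not tested.

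The libraries share only a replicate number. Same-numbered libraries did not deviate together (correlation −0.0386, −0.0140 and 0.0110 in the 3 tests). With a replicate block the calls in the 8 genes were 11 at the endogenous loci, 0 in the regions of all 4 tagged libraries and 5 for wild type minus endogenous, with 6774, 27 and 3559 lower over all. The added calls were the outer TPM1 loci in the mutant (limma adjusted p = 0.00869 and 0.0186) and, for wild type minus endogenous, the leading TPM1 region and the stronger PDLIM5 region (0.0299 and 0.0392).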

Other observations

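TTN-AS1, the noncoding gene that runs antisense to titin, had many more clusters than TTN itself. On the plus strand, opposite to the 2 TTN clusters per library, it held 129 and 82 endogenous clusters, of which 5 in each library were enriched (3.88% and 6.10%, beside 4.22% and 5.39% of all clusters), with a highest log2 fold of 4.63 and 4.87. The reproducible endogenous list had 6 peaks there. TTN-AS1 is not 1 of the 8 genes and was looked at after the TTN count had been seen.

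Tagged clusters also lay along the genes away from any endogenous cluster. Over the 7 genes with an endogenous cluster this held for 142 of 160 and 146 of 166 mutant clusters (88.8% and 88.0%), against 80 of 158 and 126 of 216 wild type clusters (50.6% and 58.3%). Over all clusters the share was 80.3% and 80.5% in the mutant libraries, against 60.3% and 65.1% in the wild type libraries, so the mutant share was the higher one in general. By gene it was lowest in TPM1, with 1 of 3 and 1 of 3 mutant clusters. The search covered only the span from the first to the last endogenous cluster of each gene. This was 6.764 kb in TPM1 and 0.024 kb in TTN. Within these spans no cluster away from endogenous ones was enriched in any tagged library, and LDB3 was not examined. Of all enriched mutant clusters, 62 of 94 and 240 of 829 lay on a named endogenous cluster. In wild type these were 4505 of 4698 and 4734 of 5171. The enriched share over all clusters away from endogenous ones is not given here, so this count is no result about these genes.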
